A study of Mus musculus with 42 samples.

Results

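The input RNA of a ribosome footprinting experiment on mouse brain was compared between Pcif1 knockout (KO) and wild-type (WT) animals. The comparison used 6 of the 42 samples of the series, 3 KO and 3 WT libraries, each from the brain of an adult mouse. These samples were chosen by their labels alone, as the brain input columns of the footprinting table. Both genotypes come from a colony started with B6D2F1/J embryos, which are a cross of C57BL/6J with DBA/2J, and its founders were then mated to C57BL/6J. The KO mice belong to a single line with an 89 bp Cas9-made deletion at exon 15 and intron 16 of Pcif1, which removes part of the catalytic site and leaves a premature stop. Whether the WT mice were littermates of the KO mice is not given in the sources used here. About 400 mg of frozen brain was homogenized per animal, and 50 µL of cleared lysate went directly into RNA extraction, so the input is total RNA of the lysate from which the footprints were made.

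PCIF1 is an RNA methyltransferase that binds the phosphorylated tail of RNA polymerase II. It adds a methyl group to the adenosine that directly follows the cap of many mRNAs and so makes the modified base m6Am. Transcripts that begin with another base are not substrates of this reaction. In textbook accounts, m6Am has been linked to mRNA stability and to translation, with findings that vary between cell types. The question asked of the brain input RNA was which transcripts differ in level when the enzyme is missing.

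Each value is a signal per gene, an estimated number of reads divided by a factor per library, and not a whole count. Estimated depth was 15171376 to 17443754 reads in 5 libraries and 5528739 reads in KO replicate 2. That library correlated with the other 5 at r = 0.919 to 0.934, while all other pairs lay between 0.951 and 0.964. These correlations cover only the protein-coding genes tested below, on a log2 scale. Its 2 mitochondrial rRNA rows took 3.68% of the signal, against 1.66 to 2.05% in the other 5 libraries. Neuronal and glial markers were present in all 6 libraries, and the sperm gene Prm1 was at 0 in all 6. The labels describe separate animals, so p-values measure the spread between these mice.

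Of 50765 rows in the table, 15298 reached a signal of 10 in 3 or more of the 6 libraries and were tested, among them 13204 protein-coding genes. With limma and Benjamini-Hochberg adjustment over all rows, 39 rows passed an adjusted p of 0.05, which is 0.255% of those tested. The 27 higher rows were 0.176% and the 12 lower rows 0.0784%. Among protein-coding genes 14 passed, or 0.106%, with 7 higher and 7 lower in KO brain (0.053% in each direction). The remaining calls fell on 13 of 628 pseudogene rows (2.07%, with 1.59% higher and 0.478% lower), 5 of 56 rRNA rows (8.93%, with 5.36% higher and 3.57% lower) and 7 of 1410 other non-coding rows (0.496%, all higher). The median log2 fold over protein-coding genes was 0.0135. Without KO replicate 2, 16 rows were higher and 9 lower, and 6 and 5 of them were protein-coding.

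**Figure D1:**
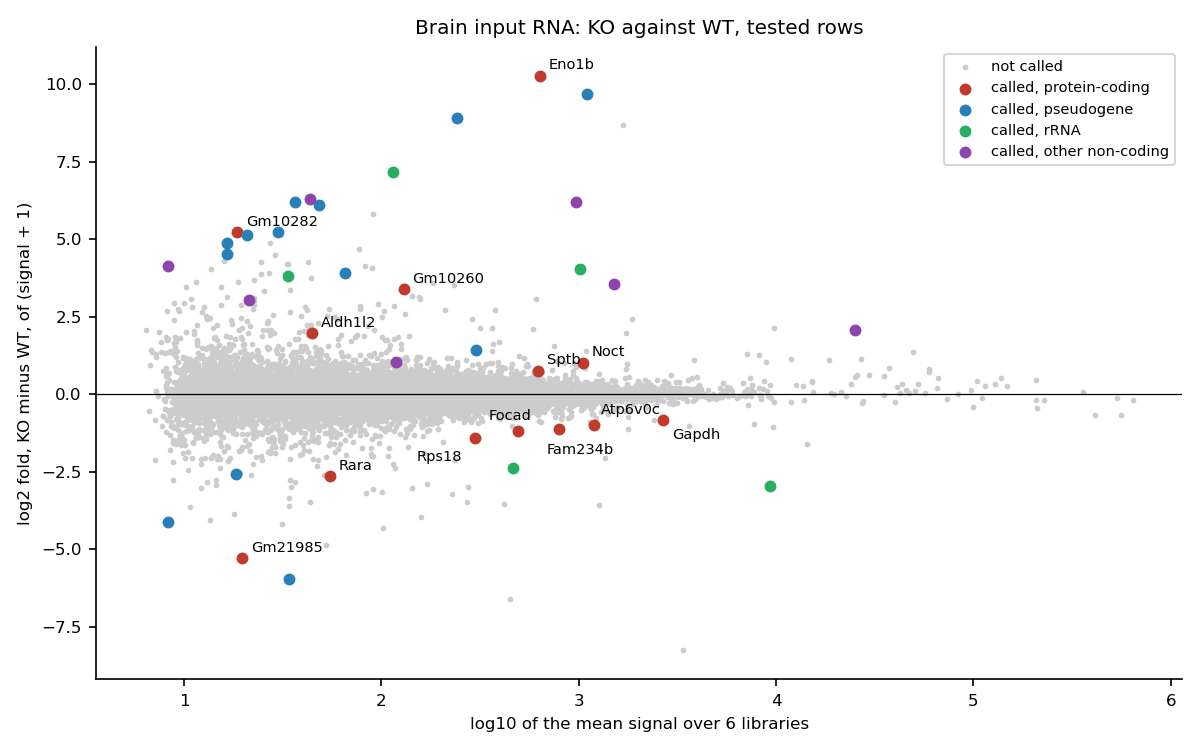
Log2 fold (KO minus WT, of signal + 1) of tested rows against the log10 of their mean signal over the 6 libraries; coloured points are called rows, by kind of row, and the protein-coding ones are named. Most points lie near 0, and the folds of rows listed at 0 in 1 genotype depend on the added 1.

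Among the called genes with the smallest adjusted p was Rps18, which encodes a protein of the small ribosomal subunit. Its signal was 170, 162 and 160 in KO brain, against 446, 435 and 421 in WT brain. The groups stood far apart with little spread inside either one. The log2 fold was -1.40 ± 0.0936 (SE, n = 3 each; limma, Benjamini-Hochberg adjusted p = 0.00346). Rps18 was 1 of 3 protein-coding genes, with Eno1b and Gm10260, that passed in every alternative setting and without any 1 library. Eno1b, listed at 0 in WT, could pass the filter only through its KO values. All settings start from the same signal per gene, so they do not test how reads were divided between similar rows.

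Gapdh, the glycolytic enzyme often taken as a loading control, fell in KO brain. It had a signal of 1972, 2072 and 1753 in KO, against 3376, 3589 and 3354 in WT, and the KO mean was 56.2% of the WT mean. The log2 fold was -0.83 ± 0.0869 (limma, adjusted p = 0.0225). The Gapdh call held in 1 of 6 fits that left out 1 library. Over all 17 alternative settings it held in 10, with limma adjusted p up to 0.893. Atp6v0c, the proteolipid ring subunit of the proton pump that acidifies lysosomes and synaptic vesicles, also fell. Its signal was 753, 839 and 818 in KO, against 1613, 1701 and 1468 in WT, a log2 fold of -0.99 ± 0.09 (limma, adjusted p = 0.0106). Leaving out 1 library at a time kept the Atp6v0c call in 3 of 6 fits.

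Of the other lower genes, Rara encodes the retinoic acid receptor alpha, a nuclear receptor. It had a signal of 12.4, 17.5 and 13.7 in KO, against 106, 77.6 and 102 in WT (log2 fold -2.63 ± 0.236, limma adjusted p = 0.0106). Rara was a low transcript in both groups, and its KO values lay close to the filter. Focad, which encodes the protein focadhesin, had a signal of 292, 262 and 357 in KO, against 743, 665 and 639 in WT (log2 fold -1.18 ± 0.135, limma adjusted p = 0.0307). Fam234b had a signal of 588, 493 and 429 in KO, against 1049, 1053 and 1154 in WT (log2 fold -1.12 ± 0.127, limma adjusted p = 0.03). The predicted gene Gm21985 was listed at 0 in all 3 KO libraries, against 26.0, 36.8 and 55.8 in WT (limma adjusted p = 0.0107). Of 6 fits that left out 1 library, Focad and Fam234b were called in 1 each, Gm21985 in 2 and Rara in 3. In none of these genes did any KO library reach the lowest WT library, which the filter fixed in advance for Gm21985.

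Among the genes that rose, Noct encodes nocturnin, a phosphatase of NADPH whose mRNA cycles with the circadian clock. Its signal was 1281, 1507 and 1428 in KO, against 718, 748 and 612 in WT. Each KO library held more than any WT library, and the log2 fold was 1.02 ± 0.109 (limma, adjusted p = 0.0244). The Noct call held in 1 of 6 fits that left out 1 library, with limma adjusted p between 0.0476 and 0.112. Aldh1l2 encodes a mitochondrial enzyme of folate metabolism that oxidizes formyltetrahydrofolate and is a known target of the stress factor ATF4. It had a signal of 71.6, 82.5 and 61.6 in KO, against 18.3, 16.9 and 17.4 in WT (log2 fold 1.97 ± 0.21, limma adjusted p = 0.0244). Its call was lost without any 1 library, with adjusted p between 0.0741 and 0.137 and log2 folds between 1.86 and 2.07.

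Sptb, the beta spectrin of the red cell membrane skeleton that neurons also make, had a signal of 770, 789 and 796 in KO, against 443, 436 and 506 in WT. The log2 fold was 0.77 ± 0.0912 (limma, adjusted p = 0.0363), and this call too was lost without any 1 library.

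The other higher protein-coding rows named here are copies or predicted genes. Eno1b, described in the deposited annotation as a retrotransposed enolase, had a signal of 913, 1323 and 1585 in KO and was listed at 0 in all 3 WT libraries (limma adjusted p = 3.06e-05). Gm10260 had 231, 202 and 280 in KO, against 24.0, 24.0 and 17.6 in WT (log2 fold 3.39 ± 0.204, limma adjusted p = 0.00226). Gm10282, which the annotation also describes as a predicted pseudogene, had 26.2, 46.3 and 39.5 in KO and was listed at 0 in WT (limma adjusted p = 0.0106). The KO libraries of Gm10260 all lay far above its WT libraries. Eno1b and Gm10282 could pass the filter only through their KO values, so their direction was fixed in advance. The Gm10282 call held in 3 of 6 fits that left out 1 library.

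**Figure D2:**
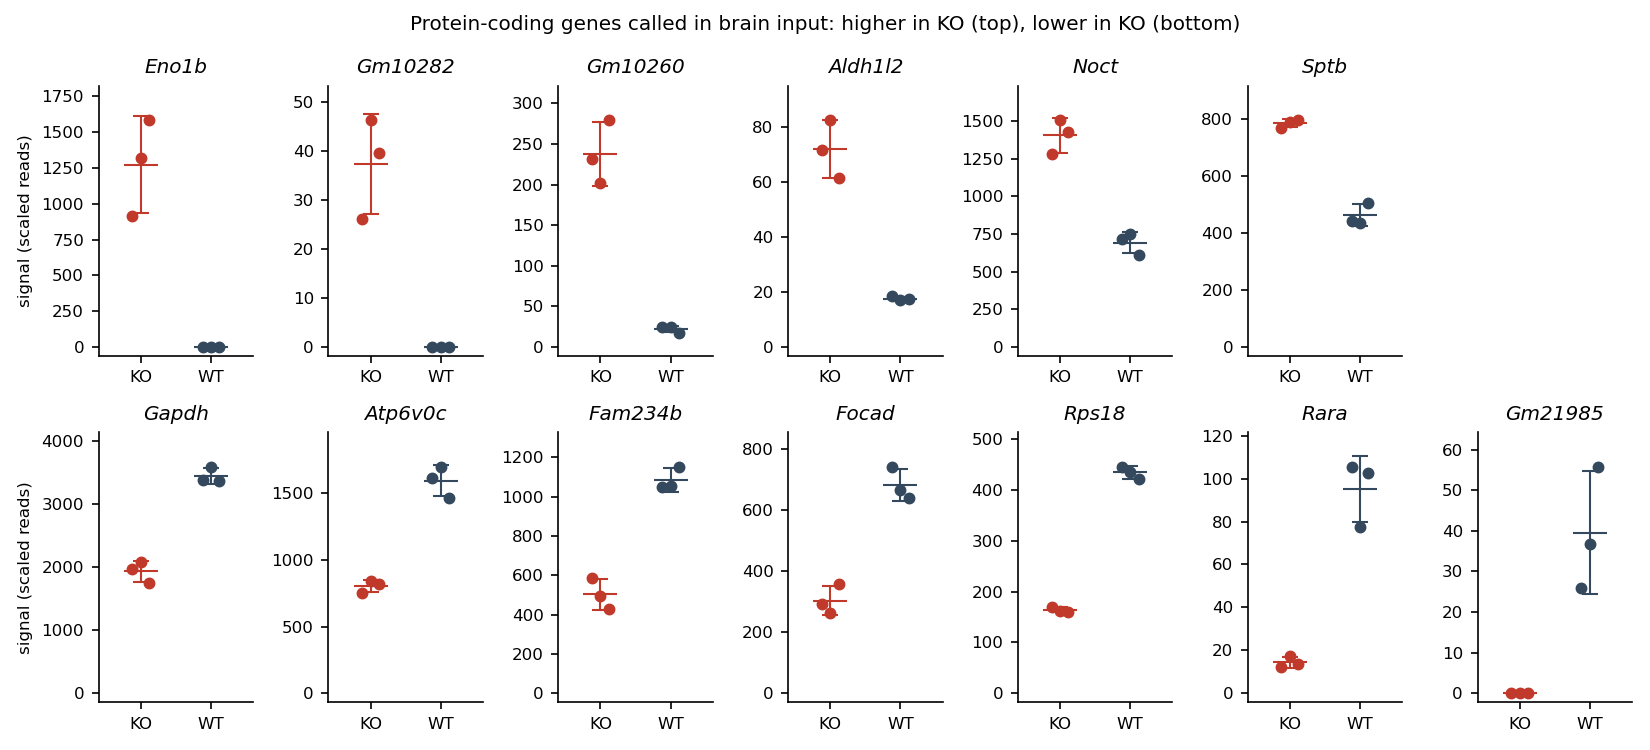
Signal (scaled reads, linear axis) of called protein-coding genes in each library, KO left of WT, with the mean and SD (n = 3) as a bar with whiskers. KO and WT libraries do not overlap in any panel, which the filter fixed for Eno1b, Gm10282 and Gm21985, listed at 0 in 1 genotype.

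The next genes by p did not pass the test, and their values are given as such. On the higher side these included Cldn11, Ncbp3, Gpr17, Ugt8a, Lss, Mbp and Bag4, with limma adjusted p between 0.0522 and 0.109. Ncbp3, which encodes a cap-binding protein, had 2412, 3962 and 1951 in KO, against 540, 900 and 612 in WT (log2 fold 1.99 ± 0.292, limma adjusted p = 0.0763). Cldn11, Gpr17, Ugt8a and Mbp are genes of the oligodendrocyte lineage, and Lss belongs to cholesterol synthesis.

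On the lower side the next genes were Tgm2, Dnah9, Nhlrc4, Ptgs2, Cep85l, Itgam, Vcam1 and Arhgap29, with limma adjusted p between 0.0533 and 0.103. Ptgs2, the inducible cyclooxygenase, had 16.4, 12.1 and 21.5 in KO, against 79.2, 55.2 and 85.3 in WT (log2 fold -2.08 ± 0.294). Vcam1, an adhesion molecule of vessel walls, had 112, 113 and 113 in KO, against 182, 226 and 223 in WT (log2 fold -0.89 ± 0.13). Dnah9, a heavy chain of ciliary dynein, had 21.3, 29.4 and 21.4 in KO, against 66.9, 74.7 and 72.3 in WT (log2 fold -1.55 ± 0.212).

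Pcif1 itself had a signal of 254, 201 and 259 in KO, against 253, 318 and 388 in WT. The groups overlapped, and the log2 fold of -0.41 ± 0.185 did not pass (limma, adjusted p = 0.491). A gene total does not show the loss of a small stretch of exon, so this value checks no label. Within 10 Mb of Pcif1 on its chromosome 171 rows were tested and 0 were called, with 13 higher and 12 lower at an unadjusted p under 0.05, against 6.03% and 4.47% of all rows. In 18 of these rows every KO library lay above every WT library, and in 21 below, against 10.6% and 7.84% of all rows. The smallest p there was that of Tgm2, a transglutaminase, with 40.6, 32.4 and 29.98 in KO, against 110.1, 85.7 and 95.5 in WT (limma adjusted p = 0.0533). Of 32 tested genes of m6A, m6Am and cap metabolism 0 were called, and 1 was higher and 1 lower at an unadjusted p under 0.05. The lower one was the decapping enzyme gene Dcp2, with 420, 258 and 350 in KO, against 566, 500 and 575 in WT (log2 fold -0.70 ± 0.181, limma adjusted p = 0.279).

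The base at which a transcript begins decides whether PCIF1 can act on it. RefSeq start sequences (GRCm38.p6) were available for 10267 tested protein-coding genes and for 8 of the 14 called ones. Of the tested genes 34.1% had an A at 1 or more annotated starts, against 2 of 8 called ones, namely Noct and Rara. The median log2 fold was 0.013 over the 3502 genes with an A start and 0.0114 over the 6765 without. Annotated starts are not measured starts in brain, and genes can use several. The windows of 30 bases below show a gene of each kind, with the annotated first transcribed base in capitals.
Noct: accagaccttctggcAggactgacgctcaa
Rara: aaactggggcagggcAgttgtgtgtaggca
Rps18: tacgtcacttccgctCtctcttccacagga
Gapdh: caaagagagggaggaGgggaaatgagagag
Sptb: ccgcgggaacaatctGtcccttccagccta

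In GRCm38.p6 the Noct window lies at chr3:51224432-51224461 on the plus strand and the Rara window at chr11:98964857-98964886 on the plus strand. Rara has 4 annotated starts, and the other ones begin with T, G and C. The Rps18 window lies at chr17:33955651-33955680, the Gapdh window at chr6:125165759-125165788 and the Sptb window at chr12:76710533-76710562, all on the minus strand. The annotated first base of Rps18 is a C inside a run of pyrimidines, the form usual for ribosomal protein genes. Noct rose and Rara fell, so the called genes with an A start did not share a direction.

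Several called rows have a close relative elsewhere in the table, and reads from such copies may be divided between rows by the authors' counting. Eno1, the parent of Eno1b, had 3925, 1496 and 2090 in KO, against 4583, 4594 and 5040 in WT, and did not pass alone (log2 fold -1.04 ± 0.318, limma adjusted p = 0.365). The sum of both enolase rows was 4838, 2818 and 3676 in KO, against 4583, 4594 and 5040 in WT. In the sum the groups overlapped, and an exact two-sided permutation test gave p = 0.3, where 0.1 is the smallest that 3 against 3 allows. For Rps18, adding the pseudogene Rps18-ps3 gave 180 ± 16.0 in KO, against 434 ± 12.2 in WT (SD, n = 3 each), or 41.4% of WT. Only the copy named after Rps18 was added, so this sum does not show whether the gap remains over all copies.

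Atp6v0c and its copy moved in opposite directions. The pseudogene Atp6v0c-ps2 had 433, 431 and 452 in KO, against 139, 149 and 207 in WT, and rose with a log2 fold of 1.43 ± 0.162 (limma, adjusted p = 0.03). Summed over the parent and 2 copies, the family had 1243 ± 49.3 in KO, against 1760 ± 86.9 in WT (SD, n = 3 each), which is 70.6% of WT and a smaller gap than that of Atp6v0c alone. The exact permutation p was 0.1, the smallest possible. The named Gapdh copies Gapdh-ps14 and Gapdh-ps15 lay at 0 to 2.38 in every library, so their sum with Gapdh left the KO mean at 56.2% of WT. Copies of Eno1, Rps18, Atp6v0c or Gapdh that carry other names were not summed.

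**Figure D3:**
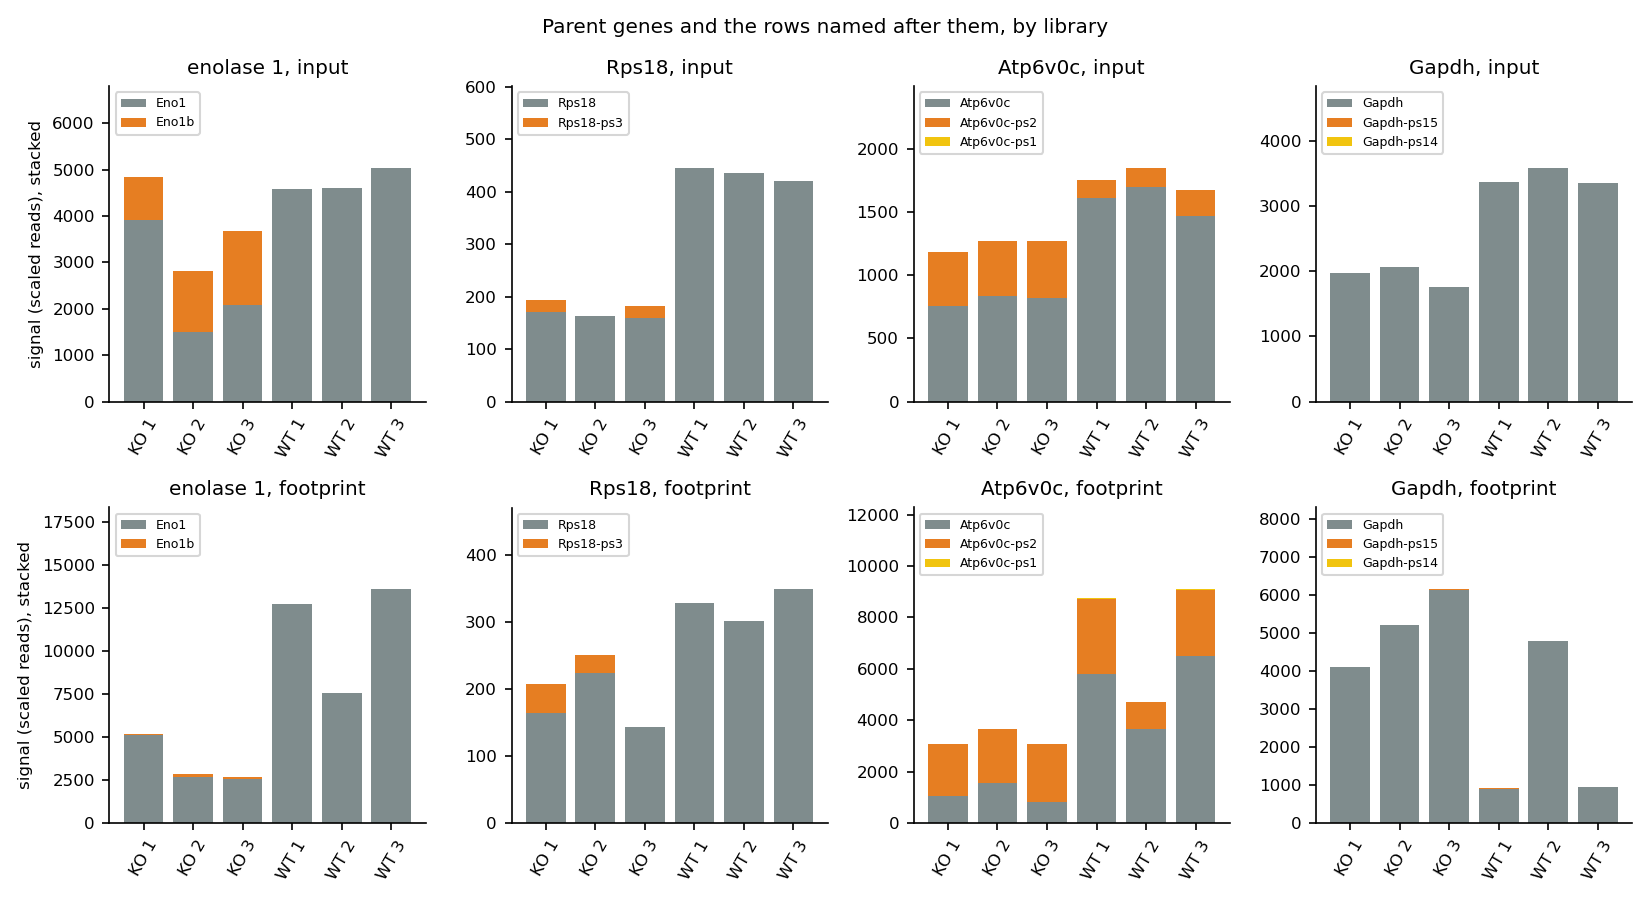
Stacked signal (scaled reads) of 4 called or parent genes and the rows named after them, in the input (top) and footprint (bottom) libraries of KO and WT brain. The WT input bars of enolase 1 hold no Eno1b, while the 3 KO bars hold 913 to 1585; Gapdh footprints vary between 903 and 4778 among WT libraries.

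Across all pseudogene rows tested, the median log2 fold was 0.166, against 0.0135 over protein-coding genes. At an unadjusted p under 0.05, 83 pseudogene rows (13.2%) were higher and 16 (2.55%) lower, while of protein-coding genes 654 (4.95%) were higher and 581 (4.4%) lower. KO libraries all lay above WT in 17.7% of pseudogene rows and all below in 4.14%. Pseudogene rows took 0.773, 0.857 and 0.74% of the signal in KO, against 0.641, 0.62 and 0.668% in WT. The exact two-sided permutation test gave p = 0.1, the smallest possible here. In 71 tested pairs of a pseudogene and the gene it is named after, 14 pseudogenes were higher and 3 lower at an unadjusted p under 0.05. The log2 fold of the parent was below 0 in 10 of those 14 pairs, and in 39 of all 71. Rps2-ps10, for example, averaged 96.5 ± 53.9 in KO, against 12.6 ± 4.61 in WT (SD, n = 3 each; limma adjusted p = 0.101), while its parent Rps2 averaged 822 in KO, against 832 in WT.

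Other called pseudogene rows were listed at or near 0 in 1 genotype. A row at 0 in 1 genotype could pass the filter only through the other, which fixed its direction in advance. Gm13394 had 1686, 2722 and 2156 in KO, against 17.2, 0 and 0 in WT (limma adjusted p = 0.028). Gm7336 had 412, 460 and 574 in KO and was listed at 0 in WT (limma adjusted p = 3.92e-05). Gm48499 went the other way, listed at 0 in KO, against 62.0, 32.4 and 110 in WT (limma adjusted p = 0.0106). No parent gene is assigned to these rows here.

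The called rRNA rows are annotated copies of 5S rRNA and 1 row related to 18S rRNA. The 5S copy n-R5s130 had 2522, 1663 and 2327 in KO, against 16212, 17190 and 16284 in WT (log2 fold -2.95 ± 0.155, limma adjusted p = 0.00146). The sum of all 5S rows was 519285 ± 83938 in KO, against 577922 ± 54068 in WT (SD, n = 3 each; exact permutation p = 0.6), and the groups overlapped. Most of that sum sat in the single copy n-R5s133, with 510024 ± 82089 in KO, against 553296 ± 52353 in WT. The row CT010467.1, annotated as related to 18S rRNA, had 1095, 3420 and 1290 in KO, against 75.3, 135 and 102 in WT (log2 fold 4.05 ± 0.437, limma adjusted p = 0.0248).

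Of other non-coding rows 12.2% were higher and 5.6% lower at an unadjusted p under 0.05, and in 17.6% all KO libraries lay above WT and in 8.72% below. Gm43846, a sense intronic transcript, had 49977, 43244 and 29149 in KO, against 7578, 11398 and 9757 in WT (log2 fold 2.07 ± 0.23, limma adjusted p = 0.0279). AY036118, a long non-coding RNA, had 2420, 1720 and 1598 in KO, against 12.2, 62.4 and 19.2 in WT (limma adjusted p = 0.0101). The long intergenic RNA rows as a class took 2.84, 3.97 and 3.41% of the signal in KO, against 2.18, 2.24 and 2.38% in WT (exact permutation p = 0.1, the smallest possible). Gm42418, the row that held 95880, 210561 and 192062 in KO, against 100129, 105453 and 122098 in WT, makes up a large part of that class. The protein-coding share was 43.0 ± 0.381% in KO, against 42.0 ± 1.59% in WT (SD, n = 3 each; exact permutation p = 0.4).

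The called rows were not gathered on the chromosome of Pcif1. The most were 5 each on chromosomes 6 and 8 followed by 4 each on chromosomes 3 and 17. On chromosome 6 these were Gapdh, Fam234b, Atp6v0c-ps2, Gm9825 and Gm44352, or 0.673% of 743 rows tested. On chromosome 17 they were Rps18, Atp6v0c, AY036118 and CT010467.1, or 0.554% of 722 rows tested. On chromosome 2, which holds Pcif1, Gm13394 and Gm21985 were called, or 0.165% of 1212.

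Marker genes of brain cell types were then read list by list. Since tissue was extracted whole, fewer cells of a type and less RNA per cell cannot be told apart. For the lists, the background among protein-coding genes was 9.49% with all KO libraries above all WT libraries and 7.9% with all below, and at an unadjusted p under 0.05 it was 4.95% higher and 4.4% lower.

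Genes of oligodendrocytes, the cells that wrap axons in myelin, had mostly higher values in KO brain. Of 16 members tested 1 was called, 9 were higher at an unadjusted p under 0.05, and in 10 every KO library lay above every WT library. The median log2 fold was 0.387, against 0.0135 over all protein-coding genes. Mbp, which encodes myelin basic protein, had 8684, 8645 and 8738 in KO, against 6660, 5661 and 5799 in WT (log2 fold 0.53 ± 0.0844, limma adjusted p = 0.101). Cldn11, the tight junction protein of myelin, had 1980, 2077 and 1986 in KO, against 1359, 1435 and 1407 in WT (log2 fold 0.52 ± 0.0697, limma adjusted p = 0.0522). Ugt8a, which makes the galactolipids of myelin, had 749, 939 and 768 in KO, against 526, 464 and 480 in WT (log2 fold 0.73 ± 0.115, limma adjusted p = 0.096).

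Not all genes of the lineage shared this. Mag, a myelin-associated adhesion protein, had 1783, 1296 and 1836 in KO, against 1583, 1358 and 1860 in WT, and Myrf and Sox10, which control oligodendrocyte maturation, overlapped between the groups as well. The list as a whole took 0.33, 0.347 and 0.33% of the signal in KO, against 0.233, 0.218 and 0.244% in WT. Without KO replicate 2 the median was 0.351, with 8 members higher at an unadjusted p under 0.05 and 1 called, while without any 1 of the other 5 libraries 0 were called. Over all settings the median ranged between 0.326 and 0.41. Of 10 oligodendrocyte precursor genes 0 were called, and only Gpr17 had KO libraries all above WT, with 539, 584 and 512 in KO, against 258, 336 and 323 in WT (log2 fold 0.84 ± 0.127, limma adjusted p = 0.0848).

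Microglia are the resident macrophages of brain, and their list leaned the other way. Of 14 members 0 were called, 6 were lower at an unadjusted p under 0.05, and 14 had a log2 fold below 0, with a median of -0.394. Itgam, the integrin chain CD11b, had 41.1, 33.9 and 30.1 in KO, against 228, 259 and 108 in WT (log2 fold -2.39 ± 0.339, limma adjusted p = 0.0636). C1qa, C1qb and C1qc, the chains of complement C1q, had log2 folds of -0.64 ± 0.163, -1.54 ± 0.321 and -1.35 ± 0.277, with limma adjusted p between 0.19 and 0.273. C1qa had 64.3, 60.9 and 62.3 in KO, against 109, 103 and 83.7 in WT. The homeostatic receptor genes P2ry12 and Cx3cr1 had log2 folds of -0.02 ± 0.187 and -0.10 ± 0.126. The C1q chains and Itgam thus lay further below WT than these receptors. The list took 0.0139, 0.0147 and 0.0145% of the signal in KO, against 0.0219, 0.0202 and 0.0188% in WT.

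**Figure D4:**
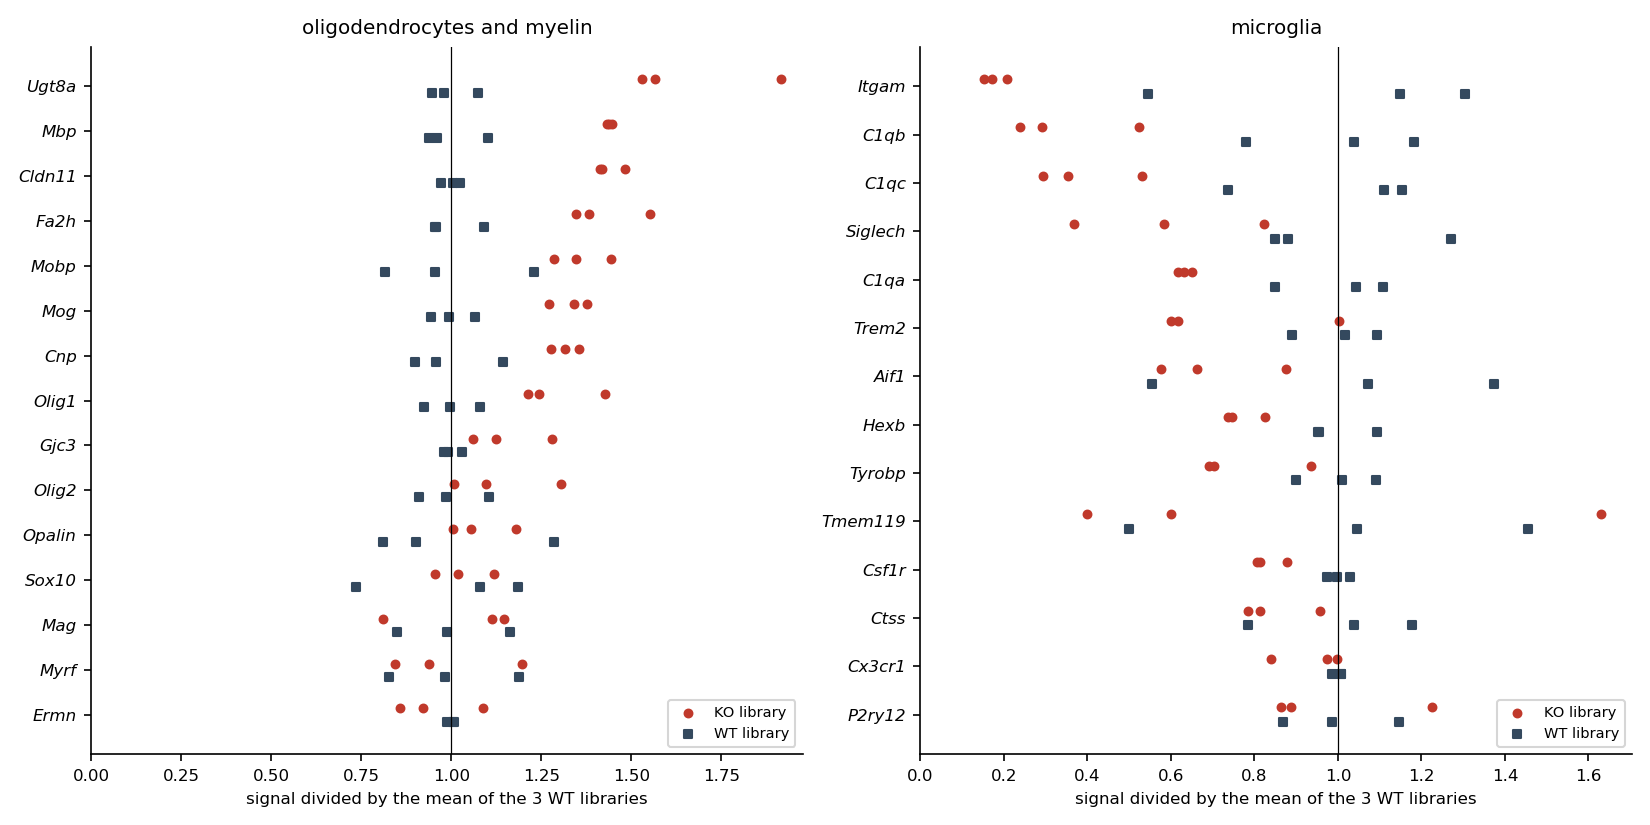
Signal of oligodendrocyte (left) and microglia (right) markers in every library, divided by the mean of the 3 WT libraries; circles are KO and squares WT. In most oligodendrocyte genes drawn the KO libraries all lie right of the WT libraries, and in 7 of 14 microglia genes they all lie left.

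Several other lists had medians near 0. Astrocyte, excitatory neuron, inhibitory neuron, striatal and endothelial lists had medians between -0.00152 and 0.0336 and 0 calls. The 12 cerebellar genes had a median of 0.207, with 4 members above WT in every KO library and 0 calls. Of 10 ependymal genes 5 were tested, 0 were called and 5 had a log2 fold below 0 (median -0.546). Foxj1, the regulator of motile cilia, had 34.1, 29.8 and 26.4 in KO, against 51.4, 47.1 and 35.6 in WT (limma adjusted p = 0.479). Of 8 tested blood cell genes 0 were called, and the 4 haemoglobin rows overlapped between the groups. S100a8, a calcium-binding protein of neutrophils, had 3.09, 9.5 and 3.74 in KO, against 21.2, 15.3 and 14.1 in WT (log2 fold -1.58 ± 0.483, limma adjusted p = 0.364). Alas2, the haem synthesis enzyme of red cell precursors, had 73.0, 84.1 and 96.5 in KO, against 125.7, 182.5 and 136.6 in WT (log2 fold -0.79 ± 0.192, limma adjusted p = 0.257). The myeloid gene S100a9 overlapped (log2 fold -0.94 ± 0.48), and the leukocyte gene Ptprc had a log2 fold of 0.07 ± 0.638. These values stand beside the lower microglia values, and their part in those was not tested.

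Cholesterol synthesis, on which myelin depends, had 23 tested genes and 0 calls. At an unadjusted p under 0.05, 7 were higher and 0 lower, with a median log2 fold of 0.214. Lss, the lanosterol synthase, had 299, 294 and 294 in KO, against 181, 200 and 195 in WT (log2 fold 0.62 ± 0.0983, limma adjusted p = 0.101). Hmgcs1, the first committed step toward mevalonate, had 3077, 2881 and 2707 in KO, against 1981, 2133 and 2132 in WT (limma adjusted p = 0.12). These values move with the myelin list, and the part of that list in them was not tested.

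Of 19 tested genes of the integrated stress response, the ATF4 programme that answers amino acid and mitochondrial stress, 1 was called (Aldh1l2), and 5 were higher and 2 lower at an unadjusted p under 0.05. Shmt2, a mitochondrial folate enzyme, had 53.6, 85.0 and 54.8 in KO, against 31.3, 33.4 and 27.1 in WT (limma adjusted p = 0.255). Atf4 itself had 316, 308 and 361 in KO, against 244, 219 and 288 in WT (limma adjusted p = 0.398). The target genes Psat1, Ddit3 and Mthfd2 overlapped between the groups. The list's median was 0.273, and 0.0753 to 0.274 in all settings but the filter at 50, which left 13 members with a median of -0.191. Without any 1 library 0 members were called.

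Of 77 ribosomal protein genes 1 was called (Rps18), while 3 were higher and 14 lower at an unadjusted p under 0.05, with a median of -0.041. The 14 became 8 without WT replicate 1 or without WT replicate 2, 9 without KO replicate 3, 9 without the mean-variance trend and 3 with the spread taken from 12 libraries. It was 13 without KO replicate 1, without KO replicate 2 or without WT replicate 3. Other scalings of the libraries (median of ratios, protein-coding sum, quantile) gave 15, 16 and 17. The next were Rps21, with 671, 610 and 630 in KO, against 783, 806 and 808 in WT (limma adjusted p = 0.257), and Rpl37a, with 282, 193 and 241 in KO, against 383, 327 and 431 in WT (limma adjusted p = 0.273). Of 38 translation factors 0 were called, and Eif4a1, an RNA helicase of initiation, had 545, 476 and 518 in KO, against 818, 749 and 716 in WT (log2 fold -0.57 ± 0.0956, limma adjusted p = 0.116). Of 22 heat shock and chaperone genes 0 were called and 19 had a log2 fold below 0, with a median of -0.211. The cytosolic Hsp90ab1 was an exception, with 3508, 4028 and 4018 in KO, against 3332, 3485 and 3312 in WT (limma adjusted p = 0.485).

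Genes of synapses, glutamate and GABA receptors, nuclear and mitochondrial respiratory chain subunits, proteasome, histones, interferon response and immediate early response had 0 calls in each list. Their medians lay between -0.147 and 0.103. The immediate early list had the lowest. Of its 18 genes 0 were higher and 3 lower at an unadjusted p under 0.05, against 4.95% and 4.4% of protein-coding genes. Of 19 clock genes 1 was called (Noct). Cry2 was the next, with 457, 430 and 457 in KO, against 372, 373 and 400 in WT (limma adjusted p = 0.432), and the phase markers Per2 and Cry1 overlapped between the groups. In 2 clock genes every KO library lay above every WT library and in 2 below, against 9.49% and 7.9% of protein-coding genes.

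**Figure D5:**
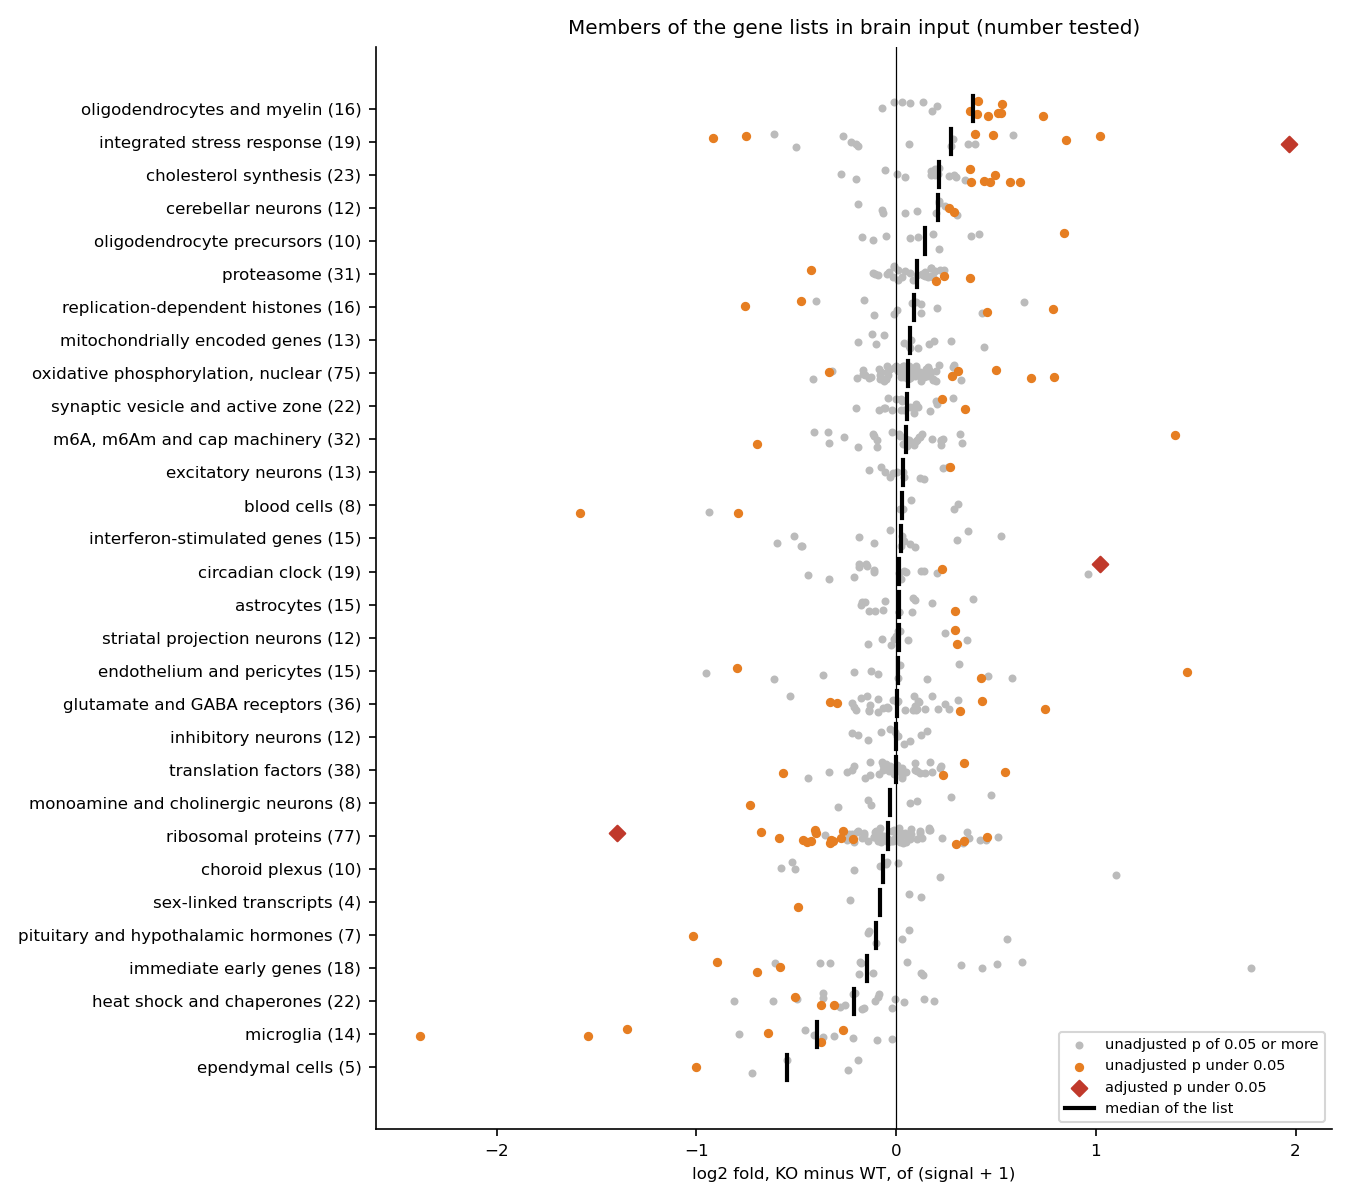
Log2 fold (KO minus WT, of signal + 1) of members of 30 gene lists, ordered by the list's median (black bar); orange marks an unadjusted p under 0.05 and red diamonds an adjusted p under 0.05. The red diamonds are Aldh1l2, Noct and Rps18, and the oligodendrocyte list stands at the top.

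Footprint libraries from the same lysates gave a second reading of the called genes, in the same 6 mice. In footprints 21 rows were higher (0.146%) and 11 lower (0.0765%) of 14377 tested. Mbp and Cldn11 had footprint log2 folds of 0.07 ± 0.252 and 0.15 ± 0.225, and Ugt8a one of 0.74 ± 0.169. Of the cholesterol genes, Hmgcs1 footprints rose, with 3631, 3980 and 4284 in KO, against 1692, 2052 and 1818 in WT (log2 fold 1.10 ± 0.132, limma adjusted p = 0.0341). Atp6v0c footprints fell, with 1063, 1553 and 812 in KO, against 5816, 3639 and 6502 in WT (log2 fold -2.23 ± 0.295, limma adjusted p = 0.046). Rps18 footprints were 163, 223 and 143 in KO, against 329, 302 and 348 in WT (log2 fold -0.90 ± 0.211, limma adjusted p = 0.319), and Gm10260 was listed at 0 in WT footprints, with 159, 185 and 201 in KO (limma adjusted p = 6.91e-04).

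Other called genes had footprint values unlike those of the input. Of 13 called protein-coding genes tested in footprints, 8 kept the sign of their input fold. Aldh1l2 and Sptb, both higher in input, overlapped between the groups in footprints. Their footprint log2 folds were -0.21 ± 0.741 and -0.32 ± 0.322 (limma adjusted p = 0.921 and 0.694). Noct footprints were 1339, 1294 and 1262 in KO, against 1586, 1139 and 1245 in WT (log2 fold -0.01 ± 0.157, limma adjusted p = 0.98). The difference between the footprint and input folds of Noct was -1.04 ± 0.189 and did not pass (limma, adjusted p = 0.0763). Gapdh footprints were 4103, 5224 and 6145 in KO, against 903, 4778 and 937 in WT, where 1 WT library stood far above the other WT libraries. Over all rows, 31 of 16527 (0.188%) passed the test of that difference. The called genes were chosen by their input fold, which is 1 term of the difference, so no count of them is read against that share. The model treats the footprint and input libraries of a mouse as independent, since the labels do not pair them.

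Testes input RNA of KO and heterozygous (HET) mice was the input of an m6Am experiment and not of footprinting. That separate table, with its own scaling and another control, held 7 of the 14 genes above its filter. There 374 rows were higher (3.32%) and 678 lower (6.01%) of 11278 tested. Rps18 fell there as well, with 993, 944 and 894 in KO, against 1269, 1024 and 1376 in HET (log2 fold -0.36 ± 0.102, limma adjusted p = 0.04). Atp6v0c-ps2 rose in testes, with 964, 1264 and 1132 in KO, against 77.5, 459 and 78.9 in HET (log2 fold 2.97 ± 0.464, limma adjusted p = 0.00265), and its parent Atp6v0c had 60.3, 45.0 and 40.9 in KO, against 85.4, 59.1 and 63.7 in HET (limma adjusted p = 0.13). Noct and Aldh1l2 were below the filter in testes.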

How the data were processed

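Footprint input RNA from adult mouse brain was measured in 3 KO and 3 WT libraries. The deposited brain table holds a signal per gene, read estimates divided by a factor per library. Per the submitters' processing notes, Salmon 0.12.0, STAR, DESeq and DESeq2 1.25.10 were used, with no role given for each. The build is not given in the sources used here. In these libraries 12.2 to 15.5% of values were whole multiples of 1 read (tolerance 0.01), so no count test was run on brain. In the deposited table for testes all values (100%) were whole reads, and edgeR 4.0.16 was run on them as an added alternative.

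Rows that reached a signal of 10 in 3 or more of 6 libraries were tested on log2(signal + 1) with limma 3.58.1 (R 4.3.3, mean-variance trend) and Benjamini-Hochberg adjustment at 0.05. The fit was tested on simulated data. Folds are on that scale, which understates changes of low genes. A 0 may be a failed estimate, so such rows are described as listed at 0. Footprints, the difference between footprint and input folds (12 libraries) and testes input were fitted alike. Sums and shares were compared by exact permutation. Alternatives were other pseudocounts, filters, scalings, spreads and library weights, and leaving out each library. Named genes were the called protein-coding genes, filled to 15 per direction by p, the 5 called non-coding rows with the largest fold per direction, Pcif1, and the called and 3 first members by p of each list. Rows outside this rule were chosen after their values were seen, as were the sums over copies. The comparison and the 31 lists were chosen with earlier results of these data known. A few genes that enter the counts and medians, 1 of them called, are not reported here. Start windows came from RefSeq (GRCm38.p6).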

Additional observations from a re-analysis of the deposited data

Results flagged for a closer look

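For 7 called rows with footprint reads, the KO against WT difference in footprints departed from that in input RNA, by the test of that difference in one limma model over 12 brain libraries (Benjamini-Hochberg adjusted p under 0.05). The rows were called in input, and the input fold is 1 term of the difference, so the sign of the values largely follows from that choice. Footprint and input libraries of a mouse enter the model as independent, because the labels do not pair them. Each value is the log2 fold in footprints minus the log2 fold in input, on the scale of signal + 1. Where a row is listed at 0 in a group, its size depends on the added 1 and is no bound. Called rows listed at 0 in all 6 footprint libraries are left out, since their difference only restates the input fold.

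Among protein-coding rows, Rara gave 2.10. It had 21.9, 22.4 and 18.1 footprints in KO, against 30.7, 31.0 and 29.4 in WT, a smaller gap than in input. Gm10260 gave 4.12, since it was listed at 0 in WT footprints and not in WT input. Gm21985 gave 6.01. It was listed at 0 in KO input and had footprints of 223, 81.9 and 160 in KO, against 84.3, 121 and 61.4 in WT.

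Among pseudogene rows, Gm7336 gave -10.28 and Gm4204 gave -4.53. Gm7336 had 2222, 1446 and 1098 footprints in KO, against 8605, 935 and 7736 in WT. Gm4204 had 572, 591 and 550 footprints in KO, against 494.7, 350.5 and 534.8 in WT. Among rRNA rows, n-R5s175 gave -4.97 and CT010467.1 gave -4.09. The 5S copy n-R5s175 had footprints of 6.43, 5.17 and 1.11 in KO and was listed at 0 in WT. The 18S-related row CT010467.1 had footprint values of 14218411, 11911285 and 11269416 in KO, against 11400886, 15618455 and 11599575 in WT.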

How the results depend on the processing

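No paired analysis was possible because the labels carry no replicate numbers. Of the 14 protein-coding calls, 3 held in every setting run and without any 1 library, and 11 were lost without 1 or more libraries. No setting changed how reads were divided between similar rows. Leaving out 1 library gave 11 to 16 rows higher and 3 to 19 lower, and 3 to 6 protein-coding genes higher and 1 to 10 lower. The fewest lower calls (3 rows, 1 protein-coding gene) came without WT replicate 1, and the fewest higher rows (11) without KO replicate 3. With limma array weights, which gave KO replicate 2 a weight of 0.323, 19 rows were lower, and 13 protein-coding genes were higher and 14 lower. With a filter at 50, 17 rows and 4 protein-coding genes were higher. Without the mean-variance trend 4 protein-coding genes were higher. Calls that were lost kept the sign of their fold, and fewer libraries or rows enter some of these fits. The median-of-ratios scaling kept all 39 calls. The testes counts were 439 higher and 650 lower with edgeR on recovered reads, against 374 and 678 with limma. Depth limits KO replicate 2, where 1 read was worth a signal of 1.86, against 0.593 to 0.693 in the other libraries. Rows near the filter of 10 therefore rest on few reads there.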

Other observations

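With array weights in limma, 13 further protein-coding genes passed that did not pass with equal weights. Among them, Ncbp3, Ugt8a, Bag4, Cldn11 and Sbk1 were higher in KO. Itgam, Ptgs2, Tgm2, Cep85l, Mrpl35, Dnah9 and Nhlrc4 were lower. Sbk1, a serine kinase gene, had a log2 fold of 1.46 ± 0.189 (limma with array weights, Benjamini-Hochberg adjusted p = 0.0364), against 1.24 with equal weights. Mrpl35, which encodes a mitochondrial ribosomal protein, had a log2 fold of -1.36 ± 0.186 (limma with array weights, adjusted p = 0.0457), with 36.9, 59.4 and 49.1 in KO, against 119, 130 and 104 in WT.

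A few further genes were set apart inside lists whose medians lay between -0.147 and 0.0154, and none passed the test. Trh, the thyrotropin-releasing hormone, had 39.2, 24.8 and 46.4 in KO, against 80.0, 67.9 and 72.0 in WT (limma adjusted p = 0.278). Th, the rate-limiting enzyme of dopamine synthesis, had 83.0, 48.4 and 56.8 in KO, against 117, 91.9 and 99.4 in WT (limma adjusted p = 0.373). Slc1a2, the main glutamate transporter of astrocytes, had 8150, 8380 and 8394 in KO, against 6104, 6931 and 7372 in WT (limma adjusted p = 0.363). The activity gene Nr4a3 had 39.8, 59.0 and 53.8 in KO, against 84.9, 87.6 and 113 in WT (limma adjusted p = 0.255).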
